A study of Mus musculus with 9 samples.

Results

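Type 2 dendritic cells of the gut lamina propria (LP) that carry the C-type lectin gene Cd209a were examined across the small intestine and the colon of mice kept under different microbial and inflammatory conditions. A cell was a member when it held at least 2 unique molecular identifiers (UMIs, 1 per captured transcript) of Cd209a and at least 20 of Cd74, under 2 of Ccr7, at most 1 of Ly6c2, under 5 C1qa, C1qb and C1qc UMIs per 10000, and 0 of Xcr1, Top2a, Cd79a and Cd3e. These limits set apart mature dendritic cells, monocytes, macrophages, type 1 dendritic cells, dividing cells, B cells and T cells. The members were thus chosen by their measured counts of these genes, and the gate selected 857 members of 31759 cells. The levels of its genes, and of the leading markers Clec10a, Mgl2 and Ifitm1, are given as a description. Single-cell RNA sequencing (10x Genomics 3′ chemistry, version 3) had been run on CD11b+ LP cells of male C57BL/6 mice of 7-8 weeks in 9 libraries. The small intestine of wildtype mice, labelled only as normal, gave 2 libraries. The colon gave 2 libraries of wildtype germ-free (GF) mice, 1 of wildtype specific pathogen free (SPF) mice given ampicillin, vancomycin, neomycin and metronidazole in the drinking water for 1 week or longer, 1 of Nlrc4 deficient mice given dextran sodium sulfate (DSS, which injures the epithelium), 1 of wildtype SPF mice given DSS, and 2 of untreated wildtype SPF mice. DSS was given at 2.5% or at other indicated doses for 7 days and was followed by regular water. All groups passed the same CD11b+ gate, which can set the share of any cell class. The labels do not say that libraries of a group came from separate mice, and the study pooled mice for its colon cells. A p-value therefore measures only the spread between libraries, which may be technical.

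Conventional dendritic cells arise from precursors that need the receptor Flt3 and carry the transcription factor Zbtb46, and they present antigen to T cells on MHC class II molecules. Type 1 cells depend on Irf8 and Batf3 and carry Xcr1 and Clec9a, whereas type 2 cells rely on Irf4 and carry Sirpa and CD11b. In the mouse gut, type 2 cells exist in a form with the integrin CD103 (encoded by Itgae) and a form without it, and the form without CD103 shares surface markers with cells that come from monocytes. CD209a is the mouse relative of human DC-SIGN, and Clec10a and Mgl2 encode galactose-type lectins that bind glycans on microbes and host cells.

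The libraries held 13243317 to 64453601 UMIs in all, and the members of each held 282212 to 3319631. Median depth per member was 7482 to 11603 UMIs, and mitochondrial transcripts took a median of 3.23% to 4.48%. Any pair of libraries shared 0 to 20 cell barcodes, and 0 to 4 members per library carried a shared barcode. A doublet caller (Scrublet) marked 1 member in GF colon library 1 and 3 in the library labelled Nlrc4 deficient and 0 to 92 of all kept cells per library, so it was used only as an alternative. In the DSS library 1 barcode stood apart. It held 55299 UMIs, 19.6% of all member UMIs there, and 0.673% of its UMIs came from epithelial genes, against at most 0.0388% in the next member. The counts of genes past 2-fold that involve the DSS library are given with and without it. Levels in the passages on DSS and on Nlrc4 deficiency leave it out where so stated. All other DSS values, among them shares, marker levels and class comparisons, include it. Free RNA was visible too: Igha, the heavy chain of IgA, had a UMI in 100% and 99.7% of small intestine members and in 98.7% and 94.3% of SPF colon members, close to the shares in Cd79a+ B cells of the same libraries (100% and 95.5% in the small intestine, 97.7% and 82.3% in the SPF colon).

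The members carried the dendritic cell genes their label calls for. Flt3 stood at 196.5 and 210 UMIs per 1000000 member UMIs (CPM) in the small intestine, 167 and 158 in the GF colon, 125 with antibiotics, 78.1 in the library labelled Nlrc4 deficient, 181 with DSS and 216 and 249 in the SPF colon. Zbtb46 was present in all libraries, at 21.3 to 50.4 CPM. Mertk, a receptor of tissue macrophages, was at 0 in 8 libraries and at 0.603 CPM in small intestine library 2. Fcgr1, a monocyte and macrophage Fc receptor, ranged from 0.603 to 39.8 CPM. Other genes listed for these cells were present. The 13 genes of a macrophage list summed to 723 to 1606 CPM per library, and the 13 of a monocyte list to 1725 to 5670. In the SPF colon, Lyz2 had 380 and 478 CPM and Lgmn 202 and 397. The name fitted the colon better than the small intestine, where a minority of members had a Clec10a UMI and most had Itgae, so these cells are called Cd209a-gated dendritic cells here. Near the limit of the gate, the 116 members with exactly 2 Cd209a UMIs had 110 CPM of Clec10a, 97.6 of Mgl2, 194 of Itgae and 87.4 of Ccr2, and the 157 cells that failed with 1 Cd209a UMI alone had 70.1, 86.1, 183 and 198 CPM in the same order of genes.

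Cd209a, the gene that defines the gate, lies on chromosome 8 (mm10). Its promoter is shown because the gate rests on this gene and because the window holds a match to the composite motif of PU.1 and IRF factors, which dendritic cells express. The RefSeq window (GRCm38.p6, 250 bases before to 50 after the start, 5′ to 3′ on the gene's strand) is given beside those of Mgl2 and Ifitm1, both leading marker genes; 3 of the 4 leading markers were in the table. Capitals mark the single match to the composite motif (GGAA, any 2 bases, GAAA), which lies on the opposite strand.
Cd209a (chr8:3748935-3749234, minus strand): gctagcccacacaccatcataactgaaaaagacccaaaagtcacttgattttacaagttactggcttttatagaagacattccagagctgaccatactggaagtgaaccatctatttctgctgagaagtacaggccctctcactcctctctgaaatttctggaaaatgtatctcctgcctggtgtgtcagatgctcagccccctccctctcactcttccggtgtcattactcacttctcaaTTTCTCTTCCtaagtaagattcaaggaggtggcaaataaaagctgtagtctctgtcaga
Mgl2 (chr11:70130107-70130406, plus strand): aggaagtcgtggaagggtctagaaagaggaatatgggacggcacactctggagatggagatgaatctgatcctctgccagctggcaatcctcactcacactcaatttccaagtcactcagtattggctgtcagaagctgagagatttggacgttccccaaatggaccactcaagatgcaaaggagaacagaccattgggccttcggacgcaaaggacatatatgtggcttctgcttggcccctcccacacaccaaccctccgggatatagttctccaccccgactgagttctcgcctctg
Ifitm1 (chr7:140967826-140968125, plus strand): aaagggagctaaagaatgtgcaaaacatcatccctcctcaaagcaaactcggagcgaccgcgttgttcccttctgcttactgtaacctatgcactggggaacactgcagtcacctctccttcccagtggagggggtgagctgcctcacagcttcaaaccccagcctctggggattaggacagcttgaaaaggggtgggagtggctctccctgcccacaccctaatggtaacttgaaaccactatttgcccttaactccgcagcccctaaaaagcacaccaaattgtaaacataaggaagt
Both strands were searched for that motif, for the interferon-stimulated response element (GAAA, any 2 bases, GAAA), which can overlap it, and for the AP-1 site TGANTCA. Of 32851 promoters of the same length, 2.72% held the first, 3.44% the second and 7.81% the third. The Mgl2 and Ifitm1 windows held none of the 3, which says only that these letters are not in these windows. A match is a description of the sequence.

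Members were most frequent in the small intestine. They made up 5.665% and 6.344% of kept cells there (207 of 3654 and 347 of 5470), against 2.945% and 1.44% in the SPF colon (77 of 2615 and 35 of 2431). The 2 groups did not overlap. In the GF colon they were 2.207% and 1.054% (32 of 1450 and 30 of 2846), which overlapped the SPF colon. The exact permutation test cannot go below p = 0.333 with 2 libraries against 2, so no difference in share can pass it. The treated colons had 1 library each and no test. The share was 1.315% with antibiotics (32 of 2433, exact 95% binomial interval 0.901% to 1.85%), 1.045% in the library labelled Nlrc4 deficient with DSS (70 of 6698, 0.816% to 1.32%) and 0.649% with DSS alone (27 of 4162, 0.428% to 0.943%). These intervals, and the Poisson intervals on levels, cover counting error only. The DSS interval lay below those of both SPF colon libraries, 2.33% to 3.67% and 1.00% to 2.00%. As a ratio of mean shares, the small intestine was 2.74 times the SPF colon, and 1.8 times after thinning to 2000 UMIs. Thinning dropped cells under 2000 UMIs and lowered the limits to 1 UMI of Cd209a and 10 of Cd74. The limits that exclude other cells were applied unchanged to the thinned counts. A cell barred by a few UMIs at full depth could thus enter, so the thinned gate does not hold the same class. SPF colon library 2, for example, then had 81 members of 1813 cells, against 41 of 2431 with at least 1 Cd209a UMI at full depth. The ratio was 4.17 without SPF colon library 1 and 2.04 without library 2. Against the SPF colon it was 0.744 for the GF colon (0.481 without GF colon library 1 and 1.13 without SPF colon library 1), 0.6 with antibiotics (0.913 without SPF colon library 1) and 0.296 with DSS (0.45 without SPF colon library 1). With all Cd74-rich cells without Cd79a or Cd3e as the denominator, the share with antibiotics was 6.74%, between the 8.49% and 4.78% of the SPF colon. With that denominator Nlrc4 deficient with DSS (2.42%) and DSS alone (2.54%) were also close.

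**Figure D1:**
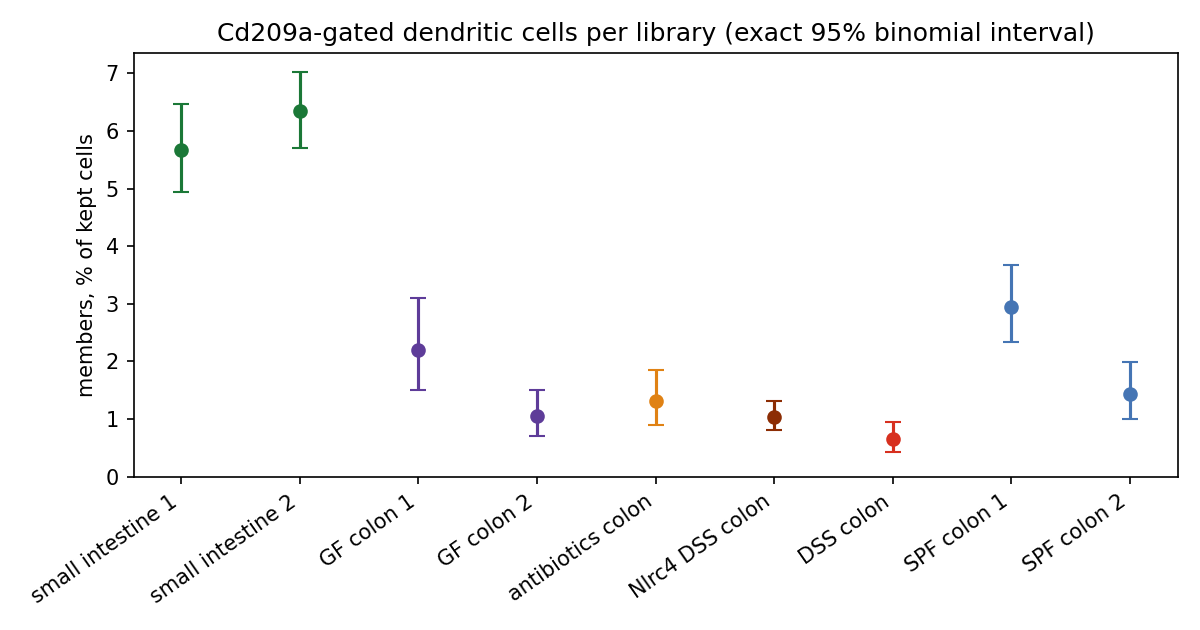
Share of kept cells that passed the Cd209a gate, in percent, with 1 point per library and exact 95% binomial intervals. Both small intestine libraries, at 5.665% and 6.344%, stand above all colon libraries, which reach at most 2.945%.

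The markers of the class did not move together between conditions. Cd209a had 519 and 818 CPM in the small intestine, 855 and 789 in the GF colon, 1356 with antibiotics, 703 in the library labelled Nlrc4 deficient, 613 with DSS, and 866 and 1163 in the SPF colon. Clec10a followed with 33.5 and 64.5 CPM in the small intestine, 172 and 158 in the GF colon, 213 with antibiotics, 290 in the library labelled Nlrc4 deficient, 230 with DSS, and 200 and 247 in the SPF colon. Small intestine library 1 was the lowest for both genes, and for Clec10a both small intestine libraries lay below all 7 colon libraries. Clec10a had a UMI in 18.8% and 28.5% of small intestine members and in 43.8% to 68.6% of members of any colon library, against 0.0% to 1.17% of B cells, the background from free RNA. Mgl2, which shares sequence with Clec10a so that reads could be split between them, had 71.0 and 221 CPM in the small intestine, 387 and 141 in the GF colon, 404.5 with antibiotics, 39.8 in the library labelled Nlrc4 deficient, 174 with DSS, and 312 and 439 in the SPF colon. Its low point was thus the Nlrc4 deficient DSS library, in which Clec10a was highest.

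Ifitm1, an interferon-induced membrane protein gene, set both DSS libraries apart. It had 1997 CPM in the library labelled Nlrc4 deficient with DSS and 2133 with DSS alone, against 157 and 1018 in the SPF colon. Elsewhere it had 73.4 and 138 CPM in the small intestine, 114 and 67.2 in the GF colon and 85.2 with antibiotics. An Ifitm1 UMI was found in 72.9% of members labelled Nlrc4 deficient and 81.5% of DSS members, against 29.9% and 71.4% of SPF colon members. By that share, though not by CPM, SPF colon library 2 lay nearer to both DSS libraries than to its own replicate. In SPF colon library 2, 150 of 392 Ifitm1 UMIs came from 1 of 35 cells. B cells with an Ifitm1 UMI made up 17.9% and 19.7% of the 2 DSS libraries (Nlrc4 deficient first) and 2.76% to 14.3% of the others. Its neighbours Ifitm2 and Ifitm3, whose sequences are alike, were highest in the library labelled Nlrc4 deficient, at 2088 and 3417 CPM, against 946 and 1651 with DSS alone and 472 and 1102, and 878 and 1049, in the SPF colon libraries.

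**Figure D2:**
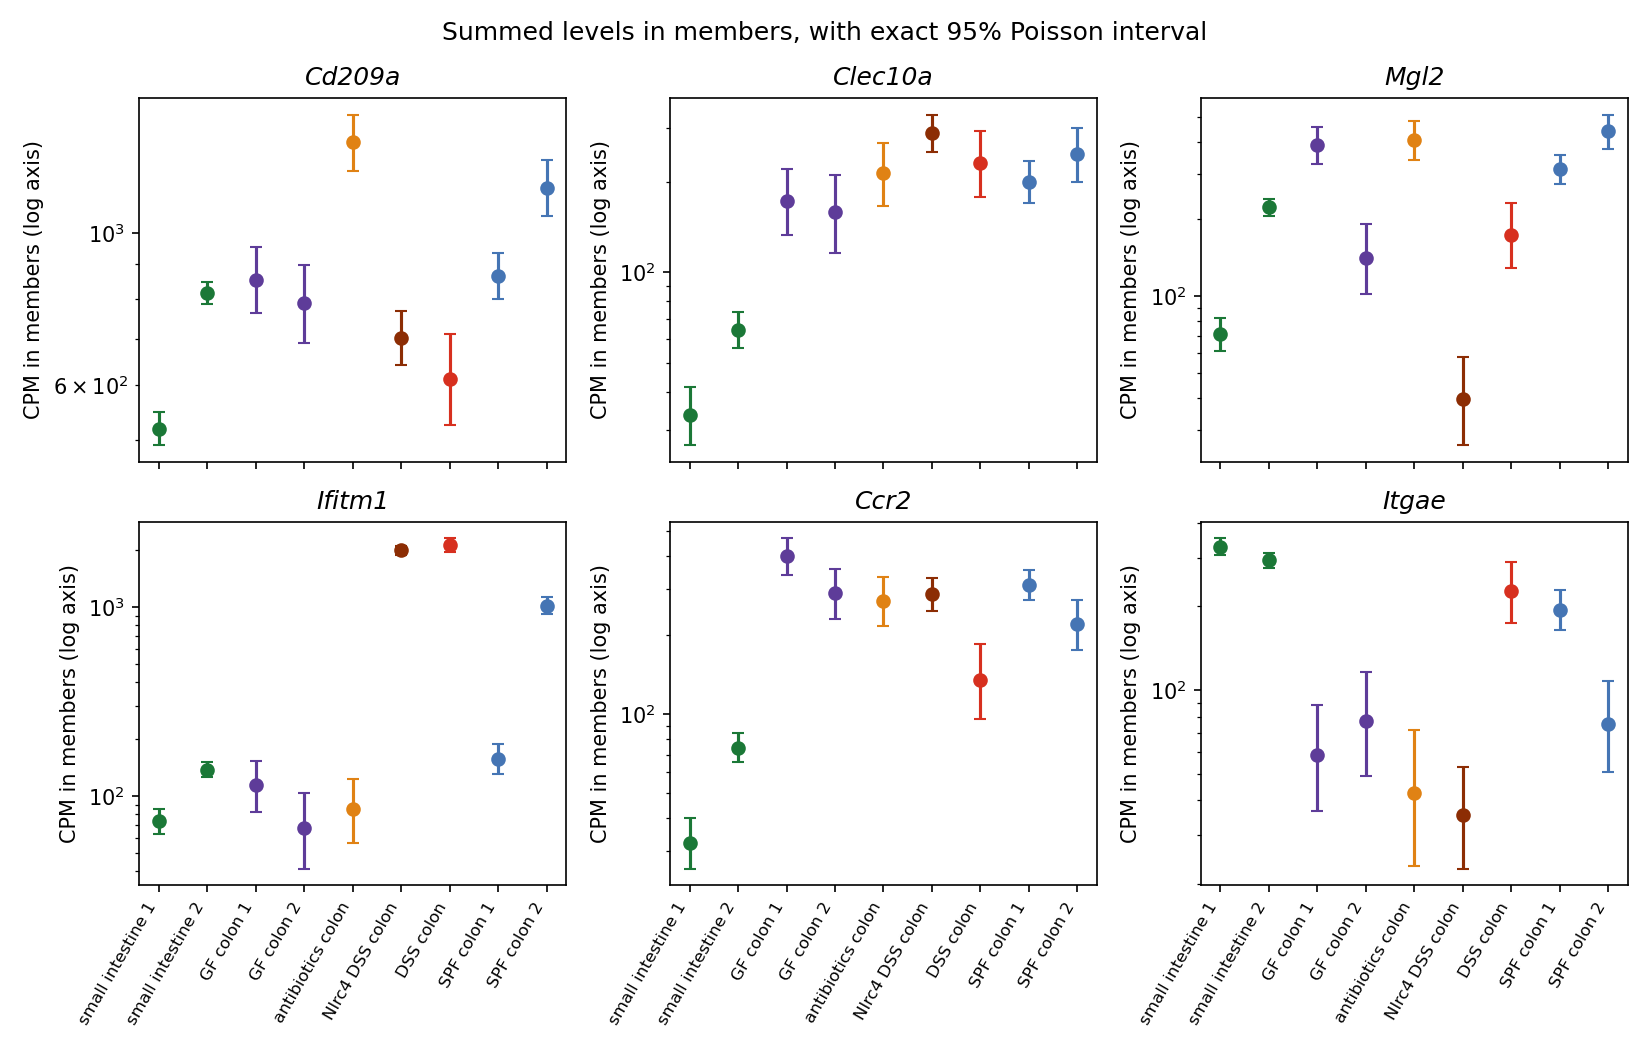
Levels of Cd209a, Clec10a, Mgl2 and Ifitm1 in the members of each library, in CPM of member UMIs, with exact Poisson intervals. Clec10a is lowest in the small intestine (33.5 and 64.5 CPM) and Ifitm1 highest in both DSS libraries (1997 and 2133 CPM).

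The members fell into an Itgae side and a Ccr2 side, and these were almost exclusive. Itgae (CD103) binds E-cadherin on epithelial cells, and Ccr2 is the chemokine receptor with which monocytes and their progeny leave the blood. Of 857 members 461 had an Itgae UMI, 263 had a Ccr2 UMI, 17 had both and 150 had neither. Itgae was found in 76.8% and 66.9% of small intestine members, 21.9% and 13.3% of GF colon members, 12.5% with antibiotics, 12.9% labelled Nlrc4 deficient, 29.6% with DSS, and 39.0% and 22.9% in the SPF colon; in B cells the share was at most 1.87%. The small intestine was also highest at 1 depth: after thinning members to 4000 UMIs the shares were 60.4% and 55.6% in the small intestine, 6.45% and 11.1% in the GF colon, 9.38% with antibiotics, 8.96% labelled Nlrc4 deficient, 30.4% with DSS, and 28.9% and 12.1% in the SPF colon. Ccr2 ran the other way, with a UMI in 9.66% and 18.7% of small intestine members and 45.7% to 65.6% of members of any colon library, against at most 7.69% of B cells. Plet1, a surface protein gene of gut dendritic cells and epithelium, went with Itgae, being present in 393 of the 461 Itgae+ members (85.2%) and in 23 of the 263 Ccr2+ members (8.75%). Over all libraries Clec10a was found in 152 of the 263 Ccr2+ members (57.8%), against 91 of the 461 Itgae+ members (19.7%), of which 159 and 232 came from the small intestine libraries. Within libraries the shares of Ccr2+ and Itgae+ members with Clec10a were 45.0% against 12.6% and 44.6% against 19.0% in the small intestine, and 65.9% (27 of 41) against 20% (6 of 30) and 62.5% (10 of 16) against 50% (4 of 8) in the SPF colon. They were close in the library labelled Nlrc4 deficient, at 68.9% against 66.7%, and the order was turned round in GF colon library 2, at 61.1% against 75.0%, where 4 members were Itgae+. Co-detection is a description, since the counts of cells in 1 library share their depth and free RNA.

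**Figure D3:**
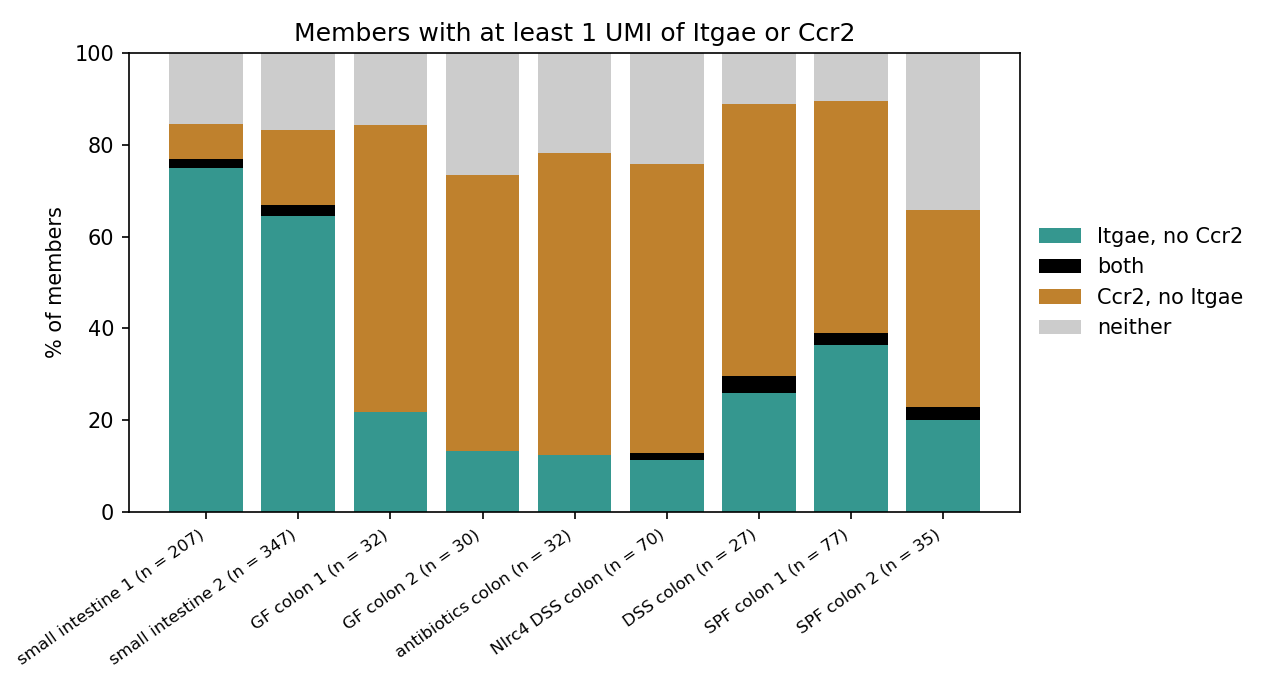
Percent of members of each library with Itgae UMIs only, with both Itgae and Ccr2 UMIs, with Ccr2 UMIs only and with neither. Itgae is found in 76.8% and 66.9% of small intestine members, and at most 39.0% of the members of any colon library.

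SPF colon library 1 and both small intestine libraries had at least 10 members on each side of the Itgae split. Over 2940 genes, 24 (0.816%) were at least 2-fold higher and 68 (2.31%) at least 2-fold lower in Itgae+ members in all 3, with no test, since cells were split by a measured gene. Plet1 had 609 CPM in Itgae+ members of SPF colon library 1, 721 and 1267 in those of the small intestine libraries, against 15, 224 and 96.7 in members with no Itgae UMI, in the same order of libraries. Dnase1l3, which encodes a secreted DNase, had 177, 190 and 98.4 CPM in Itgae+ members, against 2.5, 24.7 and 20 in the others. Cd209b, another lectin of the family, had 71.5, 77.2 and 58.3 CPM, against 0, 11.2 and 6.67. Fndc5, Pianp, Pilra, Xlr, Cpm, Mmp12 and Cwc25 completed the 10 largest increases. On the lower side stood Ccr2 (5.72, 2.95 and 4.55 CPM in Itgae+ members, against 579, 166 and 262), the calcium-binding protein gene S100a4 (22.9, 8.85 and 10.3 CPM, against 1619, 137 and 178) and Cd209d (0, 1.48 and 1.24 CPM, against 94.8, 40.4 and 58.9). S100a6, Tgfbi, Ccl6, the mannose receptor gene Mrc1, Sdc4, Tmem176a and Tmem176b were lower too. Clec10a had 34.3, 16.7 and 32.6 CPM in Itgae+ members and 344, 110 and 150 in the others. Cd209b and Cd209d share sequence with Cd209a, so their levels are uncertain where reads could be split. Itgae+ members were deeper, with medians of 11162, 12445 and 10542 UMIs, against 8715, 9390 and 7796; the part of depth in the split was not tested.

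Small intestine members were compared with SPF colon members. The small intestine mice are labelled only as normal, so the site cannot be told apart from other differences between the mice of the 2 groups. S100a4, S100a6 and Ms4a4c, 3 of the 8 tested genes of a monocyte list, fell in the small intestine, as did the transforming growth factor-induced matrix gene Tgfbi and the transcription factor gene Irf8. The quasi-likelihood test of edgeR, with p-values adjusted by the Benjamini-Hochberg method, called 9 of 5825 genes (0.155%), 0 higher and 9 lower, at an adjusted p under 0.05; 187 were higher and 289 lower at an unadjusted p under 0.05, and DESeq2 called 63. S100a4 had 31.9 and 55.7 CPM in the small intestine, against 875 and 839 in the SPF colon, a log2 fold change of -4.18 (SE 0.36, adjusted p = 0.00218). It was found in 7.25% and 12.7% of small intestine members, against 61.0% and 77.1% of SPF colon members. S100a6, its neighbour on chromosome 3, had 64.5 and 143 CPM, against 1199 and 1085 (log2 -3.35, SE 0.37, adjusted p = 0.0117). The groups were far apart for both genes, and the GF colon lay with the SPF colon, at 1165 and 1864 CPM of S100a4.

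The other calls took in receptors and a regulator. Klrb1b, which encodes an inhibitory lectin-like receptor best known from natural killer cells, had 2.42 and 7.23 CPM in the small intestine and 62.6 and 156 in the SPF colon (log2 -4.28, SE 0.57, adjusted p = 0.0299). Clec4a3, a C-type lectin, had 3.63 and 4.52 CPM, against 36.0 and 49.3 (log2 -3.21, adjusted p = 0.0354). Irf8, which drives type 1 dendritic cells, had 13.3 and 11.7 CPM, against 69.3 and 122 (log2 -2.80, SE 0.43, adjusted p = 0.0469). These were edgeR values, as were those of Tgfbi (20.6 and 32.5 CPM in the small intestine, against 193 and 226; log2 -2.87), Emp3 (18.2 and 30.7, against 155 and 384; log2 -3.34), the calcium pump gene Atp2b4 (2.02 and 6.02, against 44.0 and 72.7; log2 -3.63) and Ms4a4c (12.9 and 13.6, against 139 and 174; log2 -3.45). Only S100a4 kept its call under every alternative run. The call of Irf8 was lost without SPF colon library 2 (adjusted p = 0.117) and without GF colon library 1 (0.0532), and that of Clec4a3 without either SPF colon library, GF colon library 1 or small intestine library 1 (0.0532 to 0.144). Atp2b4 lost its call without SPF colon library 2 or either GF colon library (0.0542 to 0.0821), Emp3 without either GF colon library (0.0603 and 0.0729) and Klrb1b without GF colon library 1 (0.0532). The count itself was 97 without SPF colon library 1, 65 without small intestine library 2 and 4 without GF colon library 1.

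None of the marker and subset genes passed the edgeR test. Clec10a had a log2 fold change of -2.08 (SE 0.37, adjusted p = 0.0666) and Ccr2, at 32.3 and 74.4 CPM in the small intestine against 312 and 221 in the SPF colon, one of -2.21 (SE 0.42, adjusted p = 0.0784). Plet1 had 632 and 950 CPM, against 292 and 59.7 (log2 2.24, SE 0.55, edgeR adjusted p = 0.188), and Itgae 328 and 293 CPM, against 194.5 and 75.3 (log2 1.27, edgeR adjusted p = 0.336). Mgl2 and Ifitm1 had log2 fold changes of -1.25 (edgeR adjusted p = 0.613) and -2.38 (0.32). Cd209a itself had one of -0.51, which is only a description, since every member was chosen by its Cd209a UMIs. Clec10a passed without SPF colon library 1 (adjusted p = 0.0339) and without small intestine library 2 (0.00437), and without that library Ccr2 (0.00144), Mgl2 (0.0322) and Ifitm1 (0.0493) passed too. Plet1 passed without SPF colon library 1 (0.0043) and without small intestine library 1 (0.034), and Itgae (0.035) and Ifitm1 (0.0077) without SPF colon library 1.

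Among the gene lists, the monocyte list had 8 genes tested, 3 of them called lower (S100a4, S100a6 and Ms4a4c). Its median log2 fold change was -2.90, beside -0.004 over all genes, with 7 values negative and 1 positive. Plac8 went the other way, with 2292 and 1423 CPM in the small intestine, against 1521 and 711 in the SPF colon. The macrophage list had 6 positive and 4 negative values of 10 (median 0.13, 0 called). The C-type lectins had 13 tested, 1 called lower (Clec4a3) and a median of -0.86. Clec4e, a receptor for mycobacterial glycolipid, had 7.66 and 10.8 CPM in the small intestine, against 42.6 and 93.5 in the SPF colon, and Cd209d 8.47 and 16.9, against 50.6 and 64.9. All 8 genes tested of a list for monocyte-like type 2 cells (DC2B: Ccr2, Csf1r, Cx3cr1, Fcgr2b and others) had negative values and all 7 tested of the Itgae Plet1 list had positive ones, with medians of -1.13 and 1.23 and 0 calls in either. Csf1r, the receptor for colony stimulating factor 1, had 22.2 and 25.9 CPM, against 75.9 and 80.5. The type 2 lineage list had 10 genes positive and 8 negative of 18 (median 0.12, 0 called) and the MHC class II list a median of -0.08 over 10 genes (0 called), with H2-Aa at 8563 and 9399 CPM, against 9156 and 10873. In the cytokine list (9 tested, 0 called), oncostatin M (Osm) had 2.82 and 5.12 CPM, against 36.0 and 41.5, and Tnf 28.2 and 47.6, against 108 and 104. Of 14 interferon response genes 12 had negative values (median -0.49, 0 called), and of 8 genes of the IL-4 response 7 (median -0.93, 0 called). Plasma cell transcripts, by the 7 genes of that list, summed to 6391 and 1284 CPM in small intestine members. The sums were 1341 and 504 CPM in the SPF colon, so the groups overlapped. Their part in the results was not tested. Since the small intestine held more Itgae+ members, the fit was repeated on members with 0 Itgae UMIs. It called 11 of 4598 genes, 6 of the 9 above among them. S100a4 had 137 and 178 CPM in those of the small intestine, against 1619 and 1028 in those of the SPF colon (log2 -2.99, edgeR adjusted p = 0.000478), and S100a6, Klrb1b, Emp3, Atp2b4 and Ms4a4c remained called. Irf8 (log2 -2.09), Tgfbi (-1.54) and Clec4a3 (-1.79) did not pass, with edgeR adjusted p = 0.0748, 0.0994 and 0.191. Plet1 (224 and 96.7 CPM, against 15 and 13.9; log2 3.49) and the macrophage elastase gene Mmp12 (67.3 and 85.6, against 4.99 and 13.9; log2 3.16) were higher there, both at an edgeR adjusted p of 0.0245. Ccr2 and Clec10a had log2 fold changes of -0.94 and -1.16 in that subset. Plet1 and Mmp12 were also among the 10 largest increases in Itgae+ members. A count of 0 UMIs does not show that Itgae was absent, and members with none were shallower. Itgae+ cells may thus remain in that subset, and their part in these calls was not tested.

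**Figure D4:**
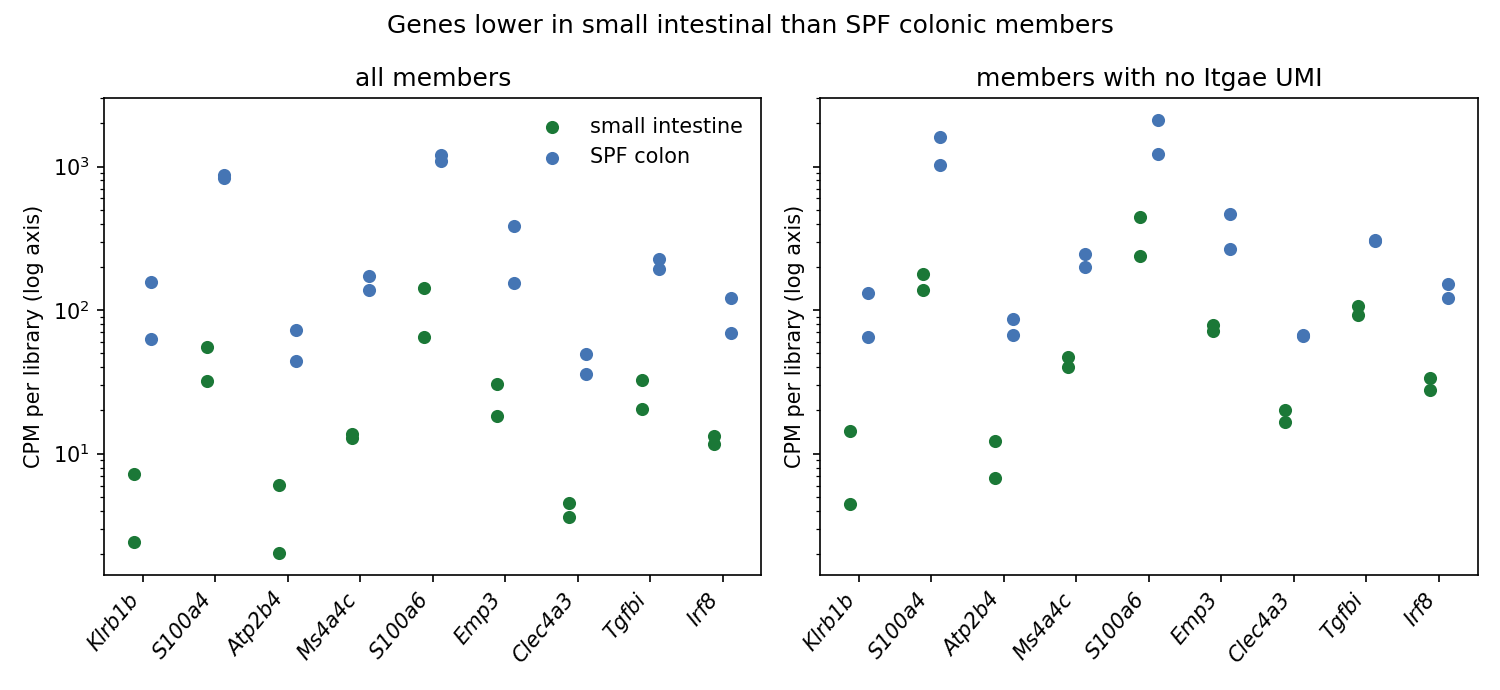
Levels in CPM (log axis) of the 9 genes called lower in the small intestine, with 1 point per small intestine or SPF colon library, for all members (left) and for members with no Itgae UMI (right). Among all members S100a4 has 31.9 and 55.7 CPM in the small intestine, against 875 and 839 in the SPF colon, and among those with no Itgae UMI 137 and 178, against 1619 and 1028.

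Some of these differences were unlike those of type 1 dendritic cells, taken as Xcr1+ cells of the same libraries. An interaction term, with the library as a block, passed for 7 of 5637 genes (0.124%; 436 at an unadjusted p under 0.05, 4 by DESeq2). Irf8 had 13.3 and 11.7 CPM in small intestine members and 69.3 and 122 in SPF colon members, whereas type 1 cells had 1065 and 930 in the small intestine and 1023 and 1061 in the SPF colon (interaction log2 -2.75, SE 0.32, edgeR adjusted p = 0.00443). Plet1 had 632 and 950, against 292 and 59.7, in members, and 42.3 and 96.2, against 157 and 70.6, in type 1 cells (interaction log2 3.16, SE 0.46, edgeR adjusted p = 0.0128). S100a6 fell further in members, with 64.5 and 143, against 1199 and 1085, than in type 1 cells, with 111 and 322, against 516 and 526 (interaction log2 -2.09, SE 0.28, edgeR adjusted p = 0.00716). The count was 28 without SPF colon library 1 and 3 without small intestine library 1, and the calls of these 3 genes held without any 1 library. A fit with no library block called 0 genes. These 3 genes also differed across the Itgae split. In SPF colon library 1, Itgae+ members had 8.57 CPM of Irf8, 609 of Plet1 and 143 of S100a6. Members there with no Itgae UMI had 122, 15 and 2121 CPM in the same order. Itgae+ members were more frequent in the small intestine, and their part in the interaction was not tested.

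Germ-free mice, which lack a microbiota, were set against SPF mice. No single gene separated the members of the 2 colons past the threshold at this number of libraries. The same edgeR test called 0 of 5825 genes (0.0%), with a smallest adjusted p of 0.793; 182 were higher and 148 lower at an unadjusted p under 0.05, and DESeq2 called 1. The largest value belonged to Retnla, which encodes a secreted protein induced by IL-4, with 1057 and 30.2 CPM in the GF colon and 1.33 and 0 in the SPF colon. It came from few cells: 5 of 32 members of GF colon library 1 held 399 UMIs, 239 of them in 1 cell, and 2 of 30 members of library 2 held 9. The chemokine gene Ccl5 had 53.0 and 326 CPM, against 21.3 and 15.6, and 65 of the 97 UMIs in GF colon library 2 lay in 1 cell. Irf8 had 29.1 and 10.1 CPM in the GF colon, against 69.3 and 122 (log2 -2.04, SE 0.53, adjusted p = 0.793); this comparison uses the same SPF colon libraries as that with the small intestine. Without single libraries the count was 0 to 3. Retnla passed without GF colon library 2 (edgeR adjusted p = 0.000744) or either small intestine library, and Ccl5 without GF colon library 1 (0.031) or either small intestine library.

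The lectin gene Cd209d had 159 and 104 CPM in the GF colon, against 50.6 and 64.9, and Clec4a3 21.2 and 13.4, against 36.0 and 49.3. Cxcl9 and Cxcl10, chemokine genes induced by interferon gamma, had 119 and 50.4, and 148 and 272 CPM, against 38.6 and 31.2, and 124 and 57.1. Cxcl2, a chemokine for neutrophils, had 548 and 353, against 883 and 766, and the immediate-early gene Junb 1861 and 1488, against 3040 and 2833. None of these passed the test. They were picked from their lists for small p-values, so it is not a separate result that the groups did not overlap in them. S100a4 and S100a6 had log2 fold changes of 0.96 and 0.88. The costimulatory gene Cd86 had 162 and 97.4 CPM, against 183 and 291, and Il12b 18.5 and 23.5, against 5.33 and 0. Over all genes the median log2 fold change was 0.003. The list medians were -0.02 for the 18 type 2 lineage genes, 0.37 for 8 genes of the DC2B list, 0.36 for 7 of the Itgae Plet1 list, -0.11 for 10 MHC class II genes, 0.02 for 14 interferon response genes, 0.32 for 14 chemokines and receptors, 0.70 for 8 monocyte genes, -0.26 for 8 costimulation genes, -0.62 for 8 genes of the IL-4 response (7 of them negative), -0.62 for 5 genes of mature dendritic cells and -2.08 for 4 plasma cell genes, with 0 called in each. Igha, from plasma cells, had 87.4 and 30.2 CPM in GF members and 646 and 257 in SPF members. The interaction with type 1 cells passed for 0 of 5637 genes (0.0%; 267 at an unadjusted p under 0.05, 0 by DESeq2).

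Antibiotics, which deplete the microbiota of a grown mouse, gave 1 library, so its values are set beside each SPF colon library with no test. Of 3194 genes with at least 30 UMIs on the higher side, 17 (0.532%) were at least 2-fold higher and 44 (1.38%) at least 2-fold lower than in both. Genes of anti-inflammatory and inflammatory cytokines stood among the higher: Il10 had 198 CPM with antibiotics (Poisson interval 153 to 252), against 9.33 and 62.3 in the SPF colon, in 8 of 32 members, and Il6 94.3, against 26.6 and 13. Cxcl10 had 541 CPM, against 124 and 57.1, and the inhibitory receptor gene Ctla4 146, against 4.0 and 18.2, 22 of its 48 UMIs in 1 cell. Apoe, a lipid carrier gene of macrophages, had 240 CPM, against 32 and 13, 35 of its 79 UMIs in 1 cell. For Yae1d1, the largest value, 71 of 74 UMIs came from 1 cell. Phlda1 and the metallothionein gene Mt2 had 225 and 249 CPM, against 65.3 and 33.8, and 87.9 and 38.9. Of the cytokine list 7 genes had enough UMIs, 2 were higher and the median log2 ratio was 0.53, beside -0.10 over all genes; the C-type lectins had 10, with 1 lower (Clec4b1, at 21.3 CPM, against 73.3 and 51.9) and a median of 0.33. On the lower side were the proton-sensing receptor gene Gpr4 (0 CPM, with an upper limit of 11.2, against 34.6 and 15.6), the Notch ligand gene Jag2 (3.04, against 42.6 and 23.4), Smad1 (3.04, against 28 and 28.6) and the lipid receptor gene Gpr55 (6.08, against 30.6 and 46.7). The 8 genes of a T cell list summed to 283 CPM with antibiotics, against 17.3 and 127 in the SPF colon. Il7r alone gave 13.3 and 119 CPM of the SPF colon sums, and the gate allowed 0 Cd3e UMIs. Only 1 gene of that list was measured against type 1 cells, and it was at least 2-fold higher in members in each of 9 libraries. The source of these transcripts, and their part in these values, was not tested.

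DSS colitis, also with 1 library, was marked by interferon-induced genes. With all 27 members, 78 of 3114 genes (2.5%) were at least 2-fold higher and 112 (3.6%) at least 2-fold lower than in both SPF colon libraries. The largest increases came from the single barcode with epithelial RNA, which held 398 of 398 UMIs of Ido1, 453 of 455 of Retnlb, 936 of 938 of Spink4, 573 of 573 of Agr2 and 257 of 264 of the mucin gene Muc2; the last 4 are genes of goblet cells. Without that barcode 27 of 2927 genes were higher and 121 lower. Ly6a, which encodes Sca-1, then had 665 CPM with DSS (interval 564 to 780), against 70.6 and 41.5 in the SPF colon. Cxcl9 had 427 CPM, against 38.6 and 31.2, and Cxcl10 383, against 124 and 57.1. The GTPase genes Ifi47 and Gbp2 had 176 and 225 CPM, against 42.6 and 20.8, and 65.3 and 33.8. The serpin gene Serpina3g had 132 CPM, against 20 and 13, Irf1 331, against 120 and 75.3, Ccl17, a chemokine for T cells, 225, against 49.3 and 93.5, and Ifitm1 2441, against 157 and 1018. Of the interferon response list 10 genes had enough UMIs, 3 were higher, 0 were lower, and the median log2 ratio was 1.15, beside -0.20 over all genes. Of 8 C-type lectins 3 were lower (median -0.76).

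Without the barcode, Mmp12 had 0 CPM with DSS (upper limit 16.3), against 139 and 112 in the SPF colon. The semaphorin co-receptor gene Nrp2 had 0 CPM, against 26.6 and 151, and the neutrophil chemokine gene Cxcl3 0, against 10.7 and 174. Cd14, the co-receptor for lipopolysaccharide, had 48.5 CPM, against 103 and 366, the mannose receptor gene Mrc1 22.0, against 77.3 and 101, and Slc7a11, the cystine transporter gene, 39.7, against 164 and 563. SPF colon library 2 was the higher of the pair in all of these but Mmp12. The 10 MHC class II genes had a median log2 ratio of 0.03 with 0 past 2-fold.

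In the library labelled Nlrc4 deficient with DSS, Nlrc4, a gene of the NAIP/NLRC4 inflammasome, had 4 UMIs in members (5.9 CPM), against 2 UMIs (7.1 CPM) with DSS alone. Reads from the 3′ end may lie outside the deleted part, so these UMIs do not check the label. With 1 library on each side, 211 of 2358 genes (8.95%) were at least 2-fold higher and 166 (7.04%) at least 2-fold lower than with DSS alone; without the epithelial barcode 220 and 105 of 2146 were. The values below are without it. Acod1, whose enzyme makes itaconate, had 128 CPM in the library labelled Nlrc4 deficient (interval 103 to 158), in 24 of 70 members, and 0 with DSS alone. The oxidative stress genes Hmox1 and Slc7a11 had 741 and 698 CPM, against 39.7 and 39.7. Hmox1 was found in 42 of 70 members, against 3 of all 27 DSS members, a count that includes the epithelial barcode. Cd14 had 383 CPM, against 48.5, Clec4e 152, against 13.2, Zeb2, a transcription factor gene of type 2 dendritic cells and monocytes, 581, against 189, and Mmp12 54.5, against 0. Gas2l3 had 149 CPM, against 4.41. For Dcn, a matrix gene of fibroblasts, 46 of 63 UMIs came from 1 cell. Lower were Ccl17 (14.7 CPM, against 225), the inhibitory receptor gene Cd72 (16.2, against 216), Itgae (35.4, against 282), Mgl2 (39.8, against 216), Flt3 (78.1, against 216), the E-cadherin gene Cdh1 (41.3, against 207) and Plet1 (130, against 300). All 3 Itgae Plet1 genes with enough UMIs were lower and 3 of 4 C-type lectins were higher, with medians of -1.18 and 1.79 beside 0.18 over all genes. Several of these, such as Slc7a11, Cd14 and Mmp12, were low in the DSS library against the SPF colon, which had 164 and 563, 103 and 366, and 139 and 112 CPM.

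Set beside other classes of the same libraries, the members differed in the genes by which such classes are known. The gates used the same cells, so these are descriptions. The gate genes and the leading markers Cd209a, Clec10a, Mgl2 and Ifitm1 were left out of the genes compared, so their differences are not counted. Against 254 Xcr1+ type 1 cells, 47 of 3030 genes (1.55%) were at least 2-fold higher and 33 (1.09%) at least 2-fold lower in members in each of 9 libraries. Itgam, which encodes CD11b, had a median of 236 CPM over libraries in members (173 to 315), against 16.4 in type 1 cells (0 to 29.6). Sirpa had 124 (81.5 to 189), against 10.0 (0 to 41.7), and the chemokine receptor gene Ccr1 211 (141 to 662), against 9.16 (2.23 to 107). Cd209d, Zeb2, Cybb (an oxidase subunit), Cd33, Pltp, Tmem176a and Tmem176b made up the rest of the 10 largest. On the lower side Irf8 had 69.3 CPM (10.1 to 163), against 1023 (407 to 1259), Clec9a 3.36 (0 to 13.2), against 119 (70.1 to 170), and Cadm1 0.301 (0 to 7.79), against 119 (52.9 to 262). Of 9 measured genes of the type 1 list 6 were lower (median log2 ratio -3.33), and of 17 type 2 lineage genes 4 were higher (median 0.06, beside -0.01 over all genes).

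Against 1533 Ly6c2+ monocytes, in 8 libraries, 35 of 3246 genes (1.08%) were higher and 135 (4.16%) lower in members. Ccr2 and Mzb1, used to choose the monocytes, were left out too. Antigen presentation genes led the higher side. H2-Oa, a regulator of peptide loading, had a median of 206 CPM in members (94.3 to 311), against 5.79 in monocytes (0 to 26.9), and H2-DMb2 228 (136 to 291), against 11.6 (0 to 40.0). Of 10 MHC class II genes 4 were higher (median log2 ratio 2.33, beside -0.04 over all genes), although Cd74 is part of the gate. Chil3, a chitinase-like gene of monocytes, had 0 CPM in the median (0 to 2.66), against 661 (161 to 2733), and Clec4e 43.1 (7.66 to 173), against 1304 (551 to 2100). Of 11 measured monocyte genes 6 were lower (median -3.42). The last class held 117 cells in 5 libraries with at least 2 UMIs of Itgae and Plet1 together and none of Cd209a. Itgae, Plet1 and Clec9a, used to choose these cells, were left out with the gate genes and leading markers. Of the 3148 genes compared, 1 (0.0318%) was higher in members in each library. It was Ccr2, with a median of 135 CPM (32.3 to 312), against 10.0 (2.94 to 66.0). A further 2 genes (0.0635%) were lower. These were Anxa3, at 3.92 CPM (0 to 17.7), against 60.7 (11.7 to 94.3), and the growth factor gene Areg, at 15.3 (6.66 to 67.8), against 128 (26.7 to 751).

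**Figure D5:**
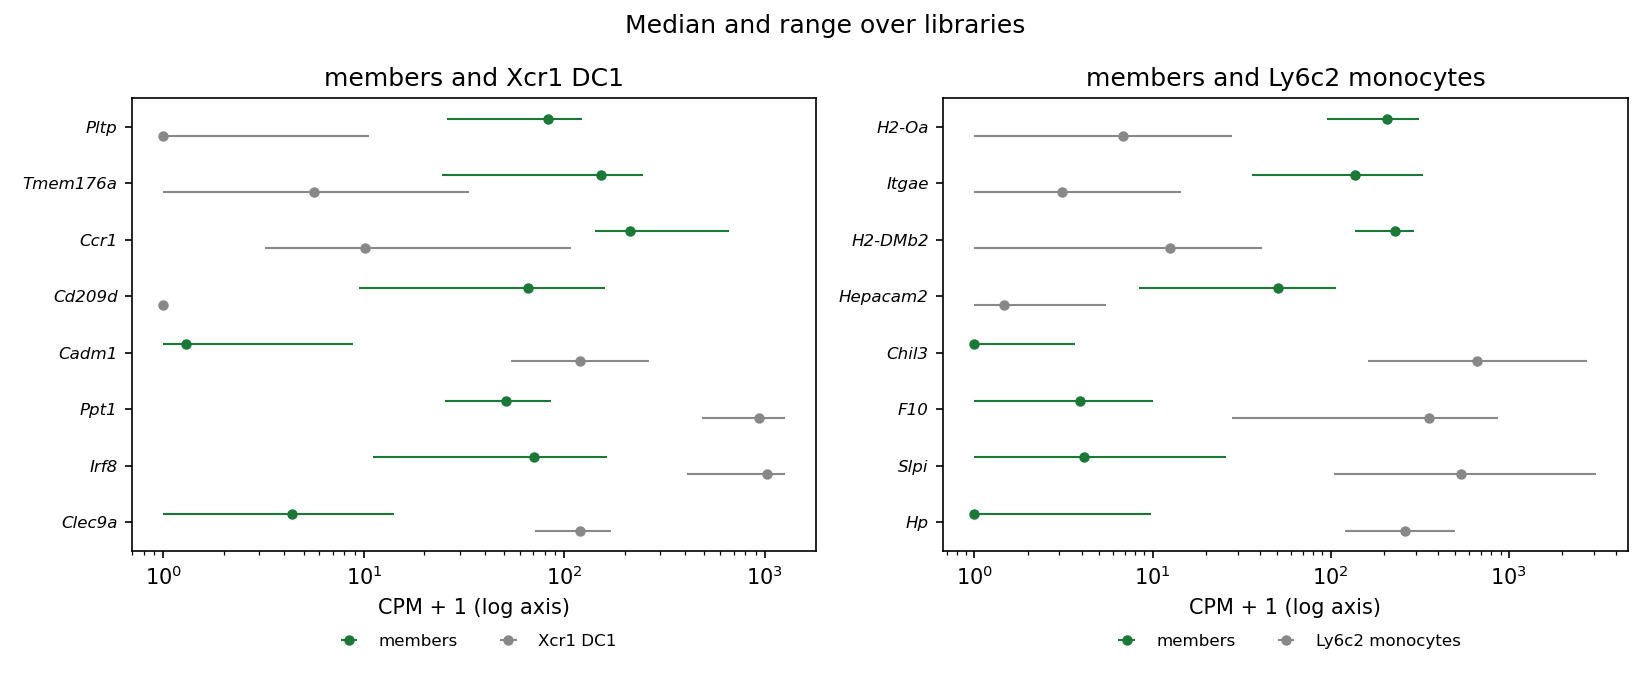
Median level over libraries, as CPM + 1 on a log axis, of the 4 genes each way with the largest ratios that set members apart from Xcr1+ type 1 dendritic cells and from Ly6c2+ monocytes, with lines over the range of libraries. Irf8 has a median of 69.3 CPM in members and 1023 in type 1 cells, and Chil3 0 in members and 661 in monocytes.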

How the data were processed

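The data were 9 libraries of CD11b+ LP cells. The authors deposited raw UMI counts per gene and barcode, made with Cell Ranger 3.0.2 (per the file headers) on mm10; the submitters' processing notes also name STAR 2.5.1b. The files list 31053 genes, 35 symbols occurring more than once. Barcodes with at most 15% mitochondrial UMIs and at least 200 genes were kept, and doublets were not removed. The members and gene lists were chosen with earlier results of these data known. Member counts were summed per library. The test was the two-sided quasi-likelihood one of edgeR 4.0.16 after filterByExpr and TMM scaling, with Benjamini-Hochberg adjustment, over the 6 libraries of groups with 2 libraries; DESeq2 1.42.0, other gates and filters, thinning, a replicate block and leaving out each library were alternatives. The scripts were tested on simulated counts. Conditions with 1 library were described by ratios after adding 5 CPM, among genes with at least 30 UMIs, at a limit of 2-fold against each library of the other group. Named genes were the leading markers, the 10 largest changes each way past the threshold (at least 50 CPM, no overlap), up to 4 of each of 30 lists, and the 8 largest ratios each way for single libraries; other genes named with single libraries, and Irf8 and S100a4 in further comparisons, were chosen after their values were seen. CPM in the text are unadjusted, and fold changes come from the fit. Reads of near-identical genes (Cd209, Ifitm, Clec10a and Mgl2) may be split by the counting.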

Additional observations from a re-analysis of the deposited data

Results flagged for a closer look

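The difference between the small intestine and the SPF colon was unlike that of Xcr1+ type 1 dendritic cells for 7 genes by edgeR's interaction term. Beside Irf8 (interaction log2 -2.75), Plet1 (3.16) and S100a6 (-2.09), which are described above, these were Cxcl10, Olfm1, Malat1 and mt-Co3. Cxcl10 had 30.3 and 32.5 CPM in small intestine members and 124 and 57.1 in SPF colon members, and 91.4 and 73.0 in small intestine type 1 cells and 54.5 and 20.9 in SPF colon type 1 cells (interaction log2 -2.61). Olfm1 had 14.5 and 35.5 CPM in small intestine members, against 159 and 177, and 46.8 and 85.5 in type 1 cells, against 112 and 94.2 (interaction log2 -2.08). Malat1, a nuclear RNA, and mt-Co3, a mitochondrial gene, had interaction values of 0.65 and 0.60. Without single libraries the call was lost for Olfm1 (without all but SPF colon library 1), Cxcl10 (SPF colon library 2, GF colon library 2 or small intestine library 1), mt-Co3 (SPF colon library 2 or either small intestine library) and Malat1 (small intestine library 1).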

How the results depend on the processing

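The alternatives were run for the called genes, the leading markers, Itgae, Plet1, Ccr2, Retnla, Ccl5 and Irf8, and not for the other named genes. Their directions held, with 4 exceptions, all in the GF comparison and far from the threshold: Cd209a without SPF colon library 2 (log2 0.08; -0.37 to 0.08 over left-out libraries), Mgl2 without GF colon library 2 (0.23; -1.34 to 0.23), and Plet1 without SPF colon library 2 (-0.01; -0.01 to 2.25) and in members with 0 Itgae UMIs (-0.66). The Cd209a values are only a description, since the gate chose members by this gene. Counts of calls moved more. The GF count of 0 became 1 with DESeq2, 32 with no filter on low counts and 0 to 3 without single libraries. The small intestine count of 9 became 63 with DESeq2, 206 with no filter, 2 with the 4 libraries of that contrast alone, 45 and 5 with at least 1 and at least 3 Cd209a UMIs, and 4 to 97 without single libraries. The GF interaction count of 0 became 11 with no filter and 0 to 3 without single libraries, and the small intestine interaction count of 7 became 4 with DESeq2, 69 with no filter and 3 to 28. The cause was not tested. Share ratios moved with the denominator and with thinning. Thinning also lowered the Cd209a and Cd74 limits, and its unchanged exclusion limits let in cells barred at full depth. Thinned, they were 1.8 for the small intestine (main 2.74), 0.217 for DSS (0.296) and 2.86 for Nlrc4 deficient over DSS (1.61). Over Cd74-rich cells, they were 1.02 for antibiotics (0.6) and 0.951 for Nlrc4 deficient over DSS. Without single libraries the main ratios ran from 2.04 to 4.17 for the small intestine, 0.481 to 1.13 for GF, 0.447 to 0.913 for antibiotics and 0.22 to 0.45 for DSS.

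No label says whether the numbers of the replicates pair the libraries. Deviations of same-numbered libraries correlated at 0.226 (SPF and GF colon), 0.385 (SPF colon and small intestine) and 0.088 (GF colon and small intestine). With 2 libraries per group these values cannot decide it, so the block was kept as an alternative. With the replicate block the counts were 2 for GF and 53 for the small intestine, with Retnla (edgeR adjusted p = 0.00972) and Clec10a (0.0238) among them, and without the block of libraries the small intestine interaction count was 0. The planned interaction with the Itgae Plet1 cells could not be fitted, with under 10 such cells in SPF colon library 2 and both GF colon libraries.

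At 27 to 77 members per colon library, a gene of a few CPM rests on 1 to 3 UMIs, and single cells decide levels such as those of Retnla and Ccl5.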
